A study of Oryza sativa with 45 samples.

Results

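The genes described here are the 150 rice genes whose mRNA stood out most on day 4 of underwater germination in the cultivar IR64, of 35677 genes in the count table. Levels are given in CPM, the count of a gene over the total of its library, scaled to 1000000 counts. Genes with an IR64 mean of 10 CPM or more at 4 d (10792 genes) were ranked by the 4 d mean over the highest of the means at 2, 8 and 14 d, with 0.5 CPM added to both, and the first 150 were taken. The members were thus chosen by their measured IR64 levels alone, so IR64 values and comparisons with IR64 are given as a description. The tests that are read were made among the other lines, and calls within IR64 are printed once with nothing read from them.

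The libraries came from IR64, which lacks the TPP7 gene of the AG1 locus and carries the SUB1A-2 allele, and from its near-isogenic lines with AG1, with SUB1, or with both loci. They are named IR64(AG1), IR64(SUB1) and, with both, IR64(AG1,SUB1), and where values for the 3 lines follow each other they keep this order. All seeds were sown under water and sampled after 2, 4, 8 or 14 d, and the samples are labelled embryo at 2 d and coleoptile later. Per the methods of the study, each sample pooled embryo, coleoptile and shoot tissue of 45 seedlings. By 8 d, per the study, leaves had come out of the coleoptile. A fall from 4 to 8 d is thus one of the whole sample, and a fall within the coleoptile was not tested. The 45 libraries fall into 16 groups of genotype and day, 13 of them with 3 libraries. The other 3, with 2 libraries, were the 8 d group of IR64(SUB1) and the first 2 days of IR64(AG1,SUB1). The seed of each line was bulked, and the effect of a locus cannot be told apart from that of the other genes on its introgressed segment. The replicates are separate experiments per the methods, and p-values measure the spread between them. This spread was estimated over all 16 groups together and not from the groups compared alone.

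The coleoptile is the sheath that encloses the first leaf of a grass seedling. In rice it can lengthen in water with almost no oxygen while root and leaf growth wait, and it does so mostly by expansion of existing cells, for which the wall has to be loosened and sugar from the seed reserves delivered. TPP7 is a trehalose-6-phosphate phosphatase that favours this growth, and SUB1A is an ethylene-responsive transcription factor that restrains elongation of submerged leaves. Expansins and pectin-modifying enzymes change how the wall yields, secreted peroxidases can stiffen it, and hexose transporters carry sugars into growing cells.

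Library totals ran from 12256409 to 24870831 counts (median 20459708). Transcripts of 12 genes described as green leaf proteins (light-harvesting and photosystem proteins) summed to 4.71 to 10.7 CPM at 2 d and to 7.0 to 12.2 CPM at 4 d, with 2 to 5 and 2 to 4 of the 12 at 0. At 8 d they summed to 1565 to 5616 CPM and at 14 d to 5035 to 11820 CPM, with none at 0, so the later samples labelled coleoptile held green leaf transcripts that the 4 d samples hardly had. The 20 genes with seed and embryo descriptions summed to 727 to 1572, 398 to 753, 333 to 479 and 325 to 382 CPM at 2, 4, 8 and 14 d, and 11 genes of dividing cells to 221 to 277, 240 to 266, 418 to 650 and 370 to 505 CPM. The 3 genes found with the word alpha-amylase, meant to mark the seed's aleurone and scutellum, include 1 amylase and 2 inhibitors, so they mark no tissue here (5.59 to 409 CPM over all libraries). These sums changed between days together with the members, their part in the changes below was not tested, and in whole samples fewer cells of a type and less RNA per cell cannot be told apart. SUB1A had 0 to 2 counts at 2 and 4 d in the libraries of both lines with SUB1, and 952 to 1678 counts at 8 d, against 5 to 45 in IR64 and IR64(AG1) at 8 d. TPP7 was not analysed here.

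For most members the peak in IR64 was modest. Their ranking ratio ran from 1.62 to 9.92 with a median of 1.94, and 66 reached 2, 10 reached 3 and 2 reached 5. The last member, an isocitrate dehydrogenase (OS01G0248400), had a ratio of 1.622, the member above it 1.642, and the first genes outside 1.620 and 1.618, so no gap separates the list from what follows it. The median member stood at 45.5% of its 4 d level at 2 d, at 39.5% at 8 d and at 10.2% at 14 d. Less than 10% of the 4 d level remained in 8 members at 2 d, in 8 at 8 d and in 75 at 14 d. The day with the next highest level was 2 d for 89 members, 8 d for 55 and 14 d for 6.

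At 4 d the members' IR64 levels ran from 10.01 to 12068 CPM with a median of 60.8 CPM, and 56 members reached 100 CPM and 10 reached 1000 CPM. The 3 most abundant, none of which has a description in the sources used here, held 44.6% of all the members' counts. The members' share of all counts in IR64 was 3.51% ± 0.215, 7.72% ± 0.228, 2.25% ± 0.303 and 0.502% ± 0.0487 on the 4 days in turn (SD, n = 3 each).

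**Figure D1:**
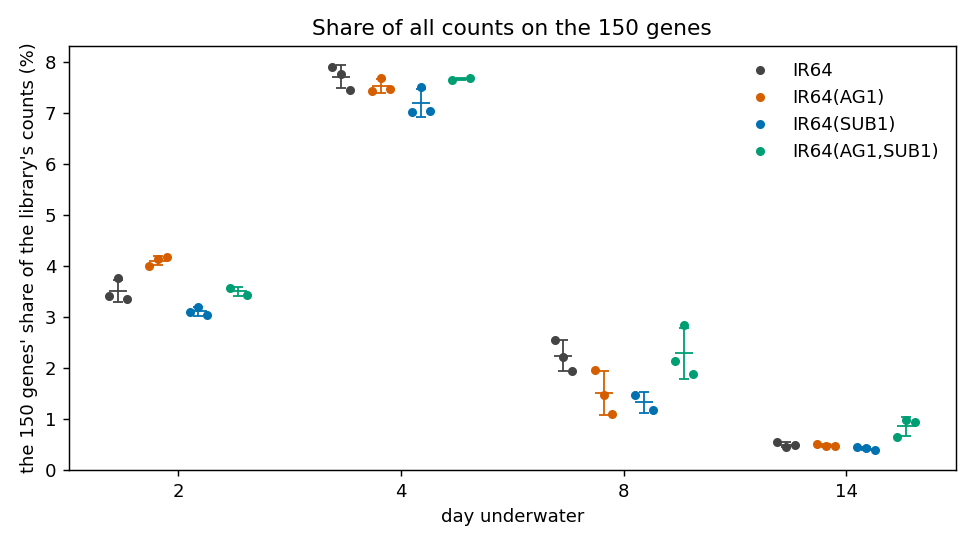
Share of each library's counts on the 150 members, in percent, by day under water, with 1 colour per genotype, points for libraries and bars for mean ± SD. Every genotype peaks at 4 d, at means from 7.20% to 7.72%, and at 8 d the means run from 1.33% to 2.29%.

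The same course appeared in the lines that the ranking had not used. IR64(AG1) held 4.11% ± 0.0857, 7.54% ± 0.140, 1.51% ± 0.432 and 0.486% ± 0.0262 of its counts on the members at 2, 4, 8 and 14 d (n = 3 each). IR64(SUB1) held 3.12% ± 0.0858, 7.20% ± 0.278, 1.33% ± 0.207 and 0.424% ± 0.0245 (n = 3, with 2 at 8 d). IR64(AG1,SUB1) held 3.51% ± 0.0904, 7.67% ± 0.0213, 2.29% ± 0.50 and 0.861% ± 0.187 (n = 2 at 2 and 4 d, 3 later). Within each line the 4 d libraries lay above all others, and the share fell below its 2 d level by 8 d.

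The highest day mean fell on 4 d for 148 members in IR64(AG1), where 18.3% of all genes at 10 CPM or more at 4 d peaked on that day, for 147 in IR64(SUB1) (16.2% of all such genes) and, with both loci, for 145 (17.3%). All 150 do so in IR64 by the rule (17% of all such genes). For 138, 145 and 136 members every 4 d library lay above every library of the other days in the 3 lines, against 7.56%, 8.57% and 9% of all such genes, and for 147 in IR64 (6.66%). In all 4 genotypes 145 members peaked at 4 d. The 5 exceptions were a beta-1,3-glucanase (OS01G0944700), highest at 2 d in all 3 lines, OS04G0201800, highest at 14 d in IR64(AG1,SUB1), OS09G0255200, which had no counts in the lines with SUB1, and 2 genes without a description that were highest at 8 d in at least 1 line. Ranked by the same rule on its own libraries, IR64(AG1) shared 100 of its top 150 with the IR64 list, IR64(SUB1) 95 and IR64(AG1,SUB1) 89.

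**Figure D2:**
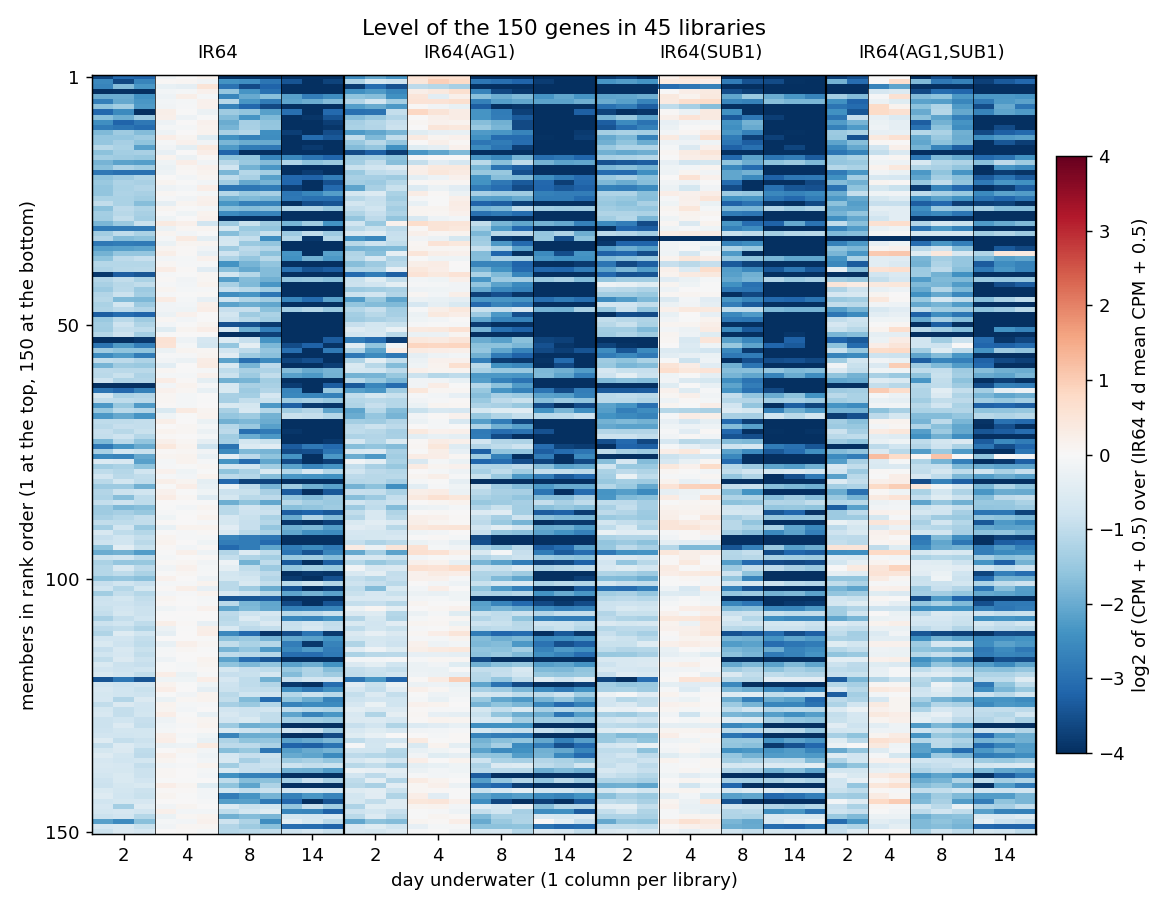
Heatmap of the 150 members (rows, by rank) in the 45 libraries (columns, by genotype and day), coloured by log2 of CPM over the IR64 4 d mean, 0.5 CPM added to both, with colours limited to -4 and 4. The 4 d mean is the highest in all 4 genotypes for 145 members, and 14 d is the lowest day for most members.

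The rise and the fall were tested in each line with edgeR's quasi-likelihood test, fitted to 26180 genes with TMM scaling. A call needed a Benjamini-Hochberg adjusted p (FDR) below 0.05 together with a change of more than 1 on the log2 scale in either direction. From 2 to 4 d, 84 members rose in IR64(AG1) (5.17% of all genes tested rose) and 115 in IR64(SUB1) (7.87%). In IR64(AG1,SUB1) 99 rose (7.93%), and the beta-1,3-glucanase was the 1 that fell (3.72% of all genes fell). From 4 to 8 d, 146 members fell in IR64(AG1) (10.7% of all genes fell), 146 in IR64(SUB1) (11.1%), while IR64(AG1,SUB1) had 136 that fell (8.1%). Between 4 and 14 d, all but 1 fell in IR64(AG1) (18.3%), 146 in IR64(SUB1) (18.1%), while IR64(AG1,SUB1) had 141 (15.5%). The fall was therefore called for nearly all members in each line, and the rise for a smaller number.

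The members' median log2 fold change in IR64(AG1) was 1.10 from 2 to 4 d, -2.39 from 4 to 8 d and -3.71 from 4 to 14 d. For IR64(SUB1) it was 1.51, -2.58 and -3.96, and for IR64(AG1,SUB1) 1.39, -1.73 and -2.93. Over all genes tested these medians lay between 0 and 0.10. The rise was called in all 3 lines for 69 members (2.57% of all genes tested) and in none for 25 (87.2%). The fall to 8 d was called in all 3 lines for 133 members (5.98%), and the fall to 14 d in all 3 for 139 (12.7%). Both the rise and the fall to 8 d were called for 83 members in IR64(AG1) (0.94% of all genes), 113 in IR64(SUB1) (1.55%), 91 in IR64(AG1,SUB1) (1.11%) and 63 in all 3 lines (0.397%), of which 29 have a description. In IR64, whose libraries chose the members, 108 were called from 2 to 4 d (6.21% of all genes), 147 from 4 to 8 d (7.8%) and 150 from 4 to 14 d (17.2%). These calls follow from the choice, and nothing is read from them. The 3 contrasts of a line share its 4 d libraries. TMM scaling relative to column totals shifted all genes by -0.0962 to -0.154 at 2 d and by -0.326 to -0.426 at 8 and 14 d relative to 4 d on the log2 scale, so on column totals both the rises and the falls are smaller. On that scale the rise was called for 73, 106 and 87 members and the fall to 8 d for 130, 132 and 106, in the same order of lines. The share of all genes called on that scale is not given here, so these counts have no background beside them.

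**Figure D3:**
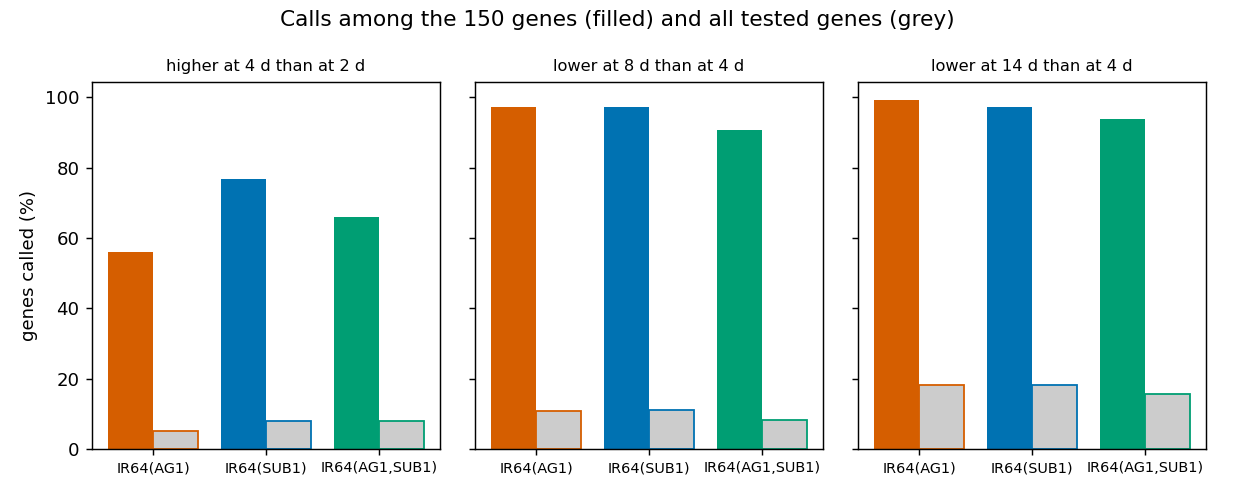
Percent of the 150 members called (filled) and percent of all 26180 tested genes called in the same direction (grey) for the rise from 2 to 4 d and the falls from 4 to 8 d and 4 to 14 d in the 3 lines. The members' rise was called for 84 to 115 genes, their fall to 8 d for 136 to 146, and the grey bars reach 18.3% at most.

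Descriptions were at hand for 53 of the members and for 3800 genes of the table, drawn from the datasets of the study, and 2225 of these described genes lie on chromosome 1. Counts by function therefore cover these genes alone, and 97 members are described by values only. For comparison, of all 26180 genes tested 1353, 2061 and 2077 rose and 826, 1073 and 975 fell from 2 to 4 d in the 3 lines. From 4 to 8 d 6481, 6269 and 5692 rose and 2797, 2910 and 2121 fell. Every chromosome held members, from 2 on chromosome 12 (0.363% of its genes that could be ranked) to 14 on chromosome 10 (2.76%), 19 on chromosome 6 (2.22%) and 24 on chromosome 1 (1.56%). In the order of the identifiers, 35 members lay in 14 runs of near neighbours, at most 10 listed genes from one member to the next. How many genes of a list of this size would do so by chance was not tested, so nothing is read from this count.

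Wall-loosening enzymes were led by the alpha-expansin EXPA1 (OS04G0228400, chromosome 4), rank 4. Expansins let cellulose and its coating glycans slide past each other in a growing wall. In IR64 its level was 2.80, 5.004 and 2.33 CPM at 2 d, 77.7, 80.3 and 94.9 at 4 d, 28.6, 16.2 and 10.3 at 8 d and 2.90, 2.04 and 2.44 at 14 d. In IR64(AG1) it was 15.2, 17.2 and 13.5 CPM at 2 d, 99.03, 111 and 132 at 4 d, 12.8, 6.27 and 5.31 at 8 d and 1.96, 1.79 and 1.56 at 14 d. All 3 IR64(AG1) libraries at 2 d lay above those of the other genotypes, and at 4 d they lay above those of IR64. In IR64(SUB1) it was 1.33, 1.47 and 2.05 CPM at 2 d, 84.7, 102 and 109 at 4 d, 6.79 and 5.80 at 8 d and 2.05, 1.69 and 1.45 at 14 d. In IR64(AG1,SUB1) it was 2.19 and 1.99 CPM at 2 d, 52.7 and 57.5 at 4 d, 6.43, 9.56 and 8.99 at 8 d and 3.11, 2.66 and 1.74 at 14 d. At 4 d both IR64(AG1,SUB1) libraries lay below all others. No 4 d library of any genotype overlapped with a library of another day. The log2 rise from 2 to 4 d was 3.00 ± 0.27 (SE), 6.05 ± 0.34 and 4.83 ± 0.41 in the 3 lines, and the fall to 8 d -4.22, -4.39 and -3.10, all called. Of 11 genes described as expansins, 10 were tested, and from 2 to 4 d 3, 5 and 4 of them rose in the 3 lines while 0, 1 and 1 fell. From 4 to 8 d 4, 4 and 5 rose and 2 fell in each line, and EXPA1 was the 1 expansin among the members.

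The 3 pectinesterases on the list remove methyl groups from wall pectin. OS01G0312500 had 48.6, 49.2 and 45.2 CPM at 2 d in IR64 and 115, 108 and 133 at 4 d, then 31.6, 34.8 and 32.3 at 8 d and 15.8, 14.4 and 14.3 at 14 d. In IR64(AG1,SUB1) it had 23.9 and 28.2 CPM at 2 d, 73.3 and 82.4 at 4 d, and 20.9, 26.8 and 21.8 at 8 d. Its 4 d libraries lay above those of every other day, and at 4 d both IR64(AG1,SUB1) libraries lay below all libraries of the other genotypes (114, 118 and 137 in IR64(AG1), 115, 135 and 166 in IR64(SUB1)). The difference in log2 was -0.65 ± 0.14 from IR64(AG1) and -0.81 ± 0.14 from IR64(SUB1) (FDR 0.0054 and 0.00045), which is under the fold of a call. OS01G0234300 fell furthest of the 3, by log2 -5.26 ± 0.26, -5.62 ± 0.31 and -4.96 ± 0.27 from 4 to 8 d in the 3 lines. OS01G0254300 had 13.8 to 18.1 CPM at 4 d in IR64 and 2.26 to 5.04 at 8 d, and rose by 1.57 to 1.61 in the lines from 2 to 4 d. All 3 rose and then fell in each of the 3 lines. Of the 29 tested genes with wall-loosening or pectin descriptions, these 3 included, 5, 4 and 3 rose from 2 to 4 d and 1, 2 and 2 fell, so the pectinesterases made up most or all of those that rose. The members were chosen for lower IR64 levels at 2 d than at 4 d, so this can follow from the choice. From 4 to 8 d 13, 12 and 14 rose and 9 fell in each line.

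Enzymes of wall synthesis and lignin had no member among 19 described genes. As 53 of 3800 described genes are members, nothing is read from a list this short without one. Of the 16 tested, 2, 3 and 2 rose from 2 to 4 d and none fell, and from 4 to 8 d 10, 8 and 8 rose and 5 fell in each line. Secreted peroxidases, which can cross-link wall polymers and lignin units, had 3 members. OS05G0135200 had 20.4, 25.3 and 17.97 CPM at 2 d in IR64, 45.3, 46.7 and 48.3 at 4 d, 7.96, 8.73 and 5.82 at 8 d and 1.54, 1.34 and 0.529 at 14 d. Its 4 d libraries in the lines lay between 43.0 and 55.1 CPM, so the genotypes overlapped on that day. OS03G0368300 and its neighbour OS03G0368000, both similar to peroxidase 1, stood at 122 to 139 and 155 to 178 CPM in IR64 at 4 d, and at 49.2 to 67.0 and 62.9 to 92.3 CPM at 8 d. All 3 peroxidases rose from 2 to 4 d in IR64(AG1) and IR64(SUB1) and fell to 8 d in each line. In IR64(AG1,SUB1) their log2 change from 2 to 4 d was 0.82 to 0.91, under the fold of a call. Among 33 peroxidases tested, 14, 13 and 12 rose from 2 to 4 d against 2, 3 and 2 that fell. From 4 to 8 d 22, 23 and 21 rose against 3, 5 and 3 that fell, so the 3 members fell while most of the tested peroxidases rose. The members were chosen for lower IR64 levels at 8 d than at 4 d, so this contrast can follow from the choice.

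The transport list held 2 members, the monosaccharide transporter MST4 (OS03G0218400) and OS04G0185600, rank 2. The latter is described as a general substrate transporter and placed in the phosphate transport category. A plasma membrane H+-ATPase (OS07G0191200) and OS04G0201800, placed with amino acid transport, are members outside this list. MST4 stood at 23.8, 26.1 and 27.1 CPM at 2 d in IR64, 71.0, 58.8 and 41.7 at 4 d, 17.1, 13.5 and 17.0 at 8 d and 7.02, 4.73 and 5.33 at 14 d. Its log2 rise was 1.17 ± 0.29, 2.40 ± 0.31 and 1.62 ± 0.37 in the 3 lines, and its fall to 8 d -3.10, -3.09 and -2.38. OS04G0185600 had 0.515 to 1.63 CPM at 2 d in IR64, 11.1 to 12.9 CPM at 4 d and 1.2 to 1.94 CPM at 8 d. The rise and the fall were called for both members of the list in all lines. Of 78 tested genes of the list 10, 18 and 14 rose and 5, 5 and 4 fell from 2 to 4 d. From 4 to 8 d 39, 39 and 33 rose and 9, 9 and 7 fell. Enzymes of fermentation and glycolysis, on which a seedling without oxygen depends for ATP, had no member among 11 described genes. A list this short can hold none by chance, so nothing is read from this. Of the 11 tested, 1, 0 and 0 rose and 0, 0 and 1 fell from 2 to 4 d, and 3 rose in each line and 4, 4 and 3 fell from 4 to 8 d. By the word alpha-amylase 1 member was found, a protein similar to an alpha-amylase/trypsin inhibitor (OS03G0661600) and no starch-degrading enzyme. It had 177, 162 and 120 CPM at 4 d in IR64 and 96.1, 70.4 and 77.0 in IR64(SUB1), with no overlap between these genotypes. Of the 3 genes of that list, it included, 2 rose from 2 to 4 d in each line, and 3, 2 and 1 fell from 4 to 8 d.

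**Figure D4:**
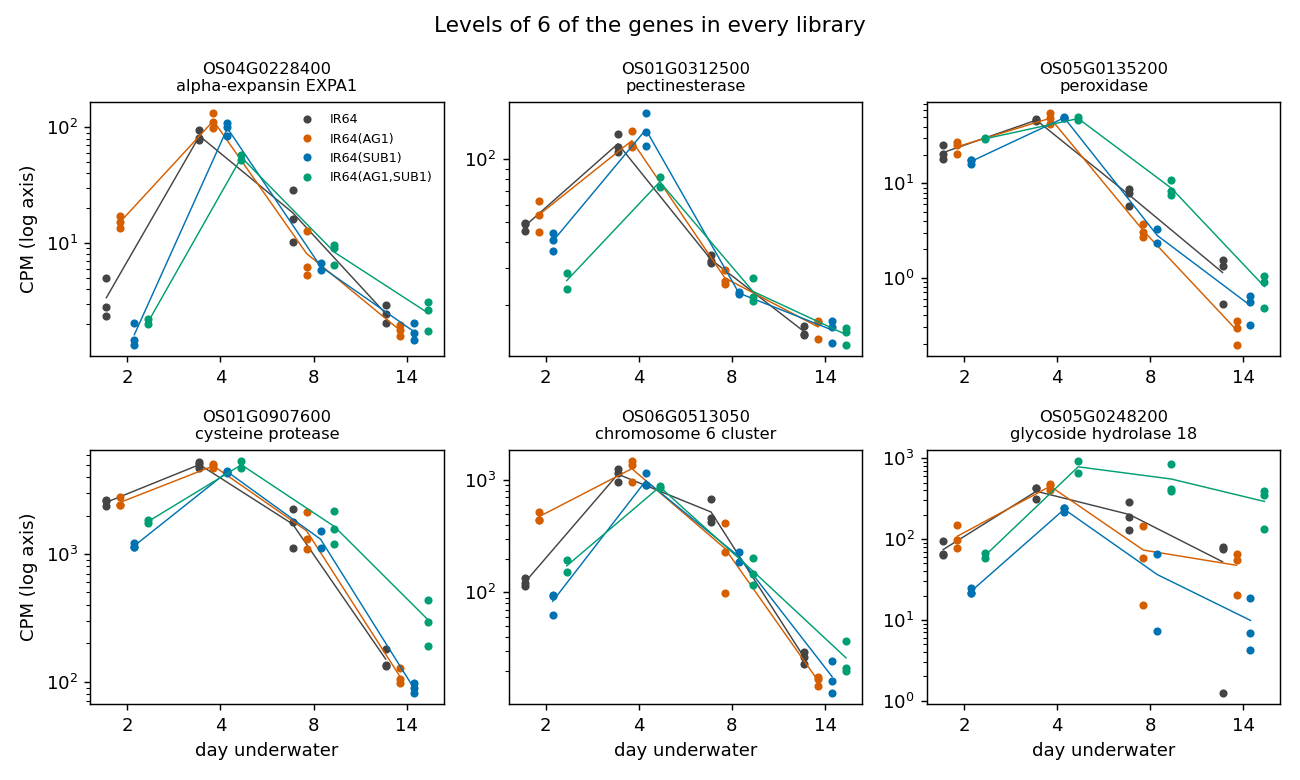
CPM on a log axis against day under water for 6 members, the expansin EXPA1 (OS04G0228400), the pectinesterase OS01G0312500, the peroxidase OS05G0135200, the cysteine protease OS01G0907600, the hypothetical protein OS06G0513050 and the GH18 protein OS05G0248200, with points for libraries and lines joining the means of each genotype. All 6 are highest at 4 d, and the GH18 protein has the widest spread at 8 and 14 d, where 1 IR64 library at 14 d has 1.26 CPM.

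The most abundant described member was a protease. The cysteine protease OS01G0907600, described as a negative regulator of cell death, reached 5031, 5283 and 4716 CPM at 4 d in IR64 from 2393, 2632 and 2596 at 2 d, and had 2260, 1773 and 1113 at 8 d and 181, 136 and 134 at 14 d. In IR64(SUB1) it began lower, at 1222, 1126 and 1128 CPM, and reached 4479, 4327 and 4394 at 4 d. Its log2 rise was 1.04 ± 0.24, 2.04 ± 0.25 and 1.58 ± 0.30 in the 3 lines. A pair of neighbouring aspartic peptidases, OS05G0403300 and OS05G0403000, stood at 857 to 1048 and 629 to 704 CPM at 4 d in IR64 and fell by log2 -3.04 to -5.42 to 8 d in the 3 lines. From 2 to 4 d the second of them changed by 0.80 to 0.99 in the lines and was not called. Of 59 proteases tested 7, 10 and 7 rose and 1, 2 and 3 fell from 2 to 4 d, and 29, 31 and 28 rose and 9, 8 and 9 fell from 4 to 8 d.

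The hormone list held 2 members, an auxin efflux carrier (OS01G0802700) and a gene similar to auxin response factor 18 (OS01G0236300). A gibberellin 3-beta-hydroxylase (OS01G0177400), which makes bioactive gibberellin, is outside this list and was named after its values were seen. It had 2.49, 4.64 and 2.53 CPM at 2 d in IR64 and 14.6, 13.4 and 14.4 at 4 d, then 9.15, 8.54 and 2.45 at 8 d and 1.01, 0.520 and 0.488 at 14 d. It rose by log2 1.22 ± 0.33, 2.94 ± 0.36 and 2.64 ± 0.45 in the 3 lines, all called. The auxin response factor had 36.8, 31.9 and 33.8 CPM at 4 d in IR64 and 10.1 to 18.3 CPM on every other day, so the other 3 days overlapped. Its log2 change was 0.92 ± 0.16 in IR64(AG1), under the fold of a call, and it rose by 1.65 ± 0.17 in IR64(SUB1) and by 1.82 ± 0.21 in IR64(AG1,SUB1). Of the 35 tested genes of the hormone list, which leave out the gibberellin enzyme, 4, 6 and 5 rose and 2, 2 and 4 fell from 2 to 4 d, and 15, 12 and 11 rose and 7, 8 and 7 fell from 4 to 8 d. Of 76 tested genes found by the words for transcription factors 1 was a member, a bHLH gene (OS06G0653200). The auxin response factor and Radc1 (OS03G0186900), which carry categories of transcriptional regulation, were not found by these words. The bHLH gene rose in IR64(AG1) and IR64(SUB1) by 1.59 ± 0.23 and 1.85 ± 0.23, and in IR64(AG1,SUB1), where its libraries had 10.3 and 7.90 CPM at 2 d and 10.5 and 10.8 at 4 d, the value was 0.33 ± 0.28 (FDR 0.43). Of these 76, 8, 11 and 9 rose and 6, 4 and 11 fell from 2 to 4 d, and 39, 41 and 39 rose and 12, 11 and 8 fell from 4 to 8 d.

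The lipid and cuticle list held 1 member, a GDSL lipase (OS02G0740400). A neighbouring pair of serine palmitoyltransferases, the enzyme that begins sphingolipid synthesis, is outside this list and was named after the values were seen. The GDSL lipase stood at 111 CPM in each IR64 library at 2 d and at 229, 225 and 213 at 4 d, and its log2 change from 2 to 4 d was 0.76 ± 0.19, 1.39 ± 0.19 and 0.93 ± 0.23 in the 3 lines, past the fold of a call in IR64(SUB1). Serine palmitoyltransferase OS01G0928600 had 58.7, 53.6 and 52.8 CPM at 4 d in IR64, 28.8, 25.8 and 28.7 in IR64(SUB1) and 41.1 and 36.3 in IR64(AG1,SUB1), with no overlap among these genotypes. Its neighbour OS01G0928700 had 84.6 to 142 CPM at 4 d in IR64, 99.9 to 137 in IR64(AG1), 66.9 to 108 in IR64(SUB1) and 162 to 183 in IR64(AG1,SUB1), so the first 3 overlapped and both IR64(AG1,SUB1) libraries lay above them. Of the 29 tested genes of the lipid and cuticle list, which leave out this pair, 5, 8 and 2 rose and 1, 1 and 3 fell from 2 to 4 d, and 20, 23 and 18 rose and 5, 5 and 4 fell from 4 to 8 d. A cytochrome P450 (OS02G0569900) had 0.0509, 0.147 and 0.399 CPM at 2 d in IR64 and 19.4, 10.8 and 7.83 at 4 d, and of 36 tested P450 genes 2, 3 and 3 rose and 1, 2 and 1 fell from 2 to 4 d and 15, 15 and 10 rose and 6, 6 and 7 fell from 4 to 8 d. None of 30 genes found by the words for defence was a member, and nothing is read from this. Of the 26 tested genes of this list, 0, 5 and 2 rose and 1, 0 and 0 fell from 2 to 4 d. From 4 to 8 d 13, 13 and 10 rose and 4 fell in each line. The words missed members with related descriptions. These include the GH18 proteins OS05G0247800 and OS05G0248200 and the amylase/trypsin inhibitor, also described as antifungal, all in the biotic stress category. The beta-1,3-glucanase is also outside the list.

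A run of 6 members on chromosome 6 contains 5 genes described as conserved hypothetical proteins and placed in the biotic stress category. OS06G0513050, the first in the run, had 113, 133 and 122 CPM at 2 d in IR64, 959, 1255 and 1143 at 4 d, 674, 417 and 461 at 8 d and 26.7, 29.6 and 23.2 at 14 d. In IR64(AG1) it was already at 440, 523 and 444 CPM at 2 d, above every 2 d library of the other genotypes, and reached 956, 1453 and 1351 at 4 d. OS06G0514100, far less abundant, had 2.00 to 2.54 CPM at 2 d and 19.4 to 22.8 at 4 d in IR64, and 8.28 to 11.2 CPM at 2 d in IR64(AG1). The log2 rise of OS06G0513050 was 1.52 ± 0.30, 3.67 ± 0.32 and 2.45 ± 0.38 in the 3 lines. OS06G0513781 and OS06G0513862 had nearly equal values throughout and may be copies that share reads, so their separate levels are uncertain. The stress category held 8 of the 53 described members (15.1%) and 135 of the 3800 described genes (3.55%). The 5 genes of this run are among the 8, as are the neighbouring GH18 proteins OS05G0247800 and OS05G0248200. Of the described genes 2225 lie on chromosome 1, but of the described members 17 do. The 2 shares thus have unlike bases, and nothing is read from their difference.

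Among the undescribed members the top of the ranking was OS10G0116800, with 14.9, 21.9 and 20.7 CPM at 2 d in IR64, 176, 194 and 212 at 4 d, 4.33, 5.77 and 4.11 at 8 d and 0.571, 0 and 0.895 at 14 d. It rose by log2 3.03 ± 0.31, 4.46 ± 0.34 and 3.75 ± 0.41 and fell by -7.18 ± 0.40, -6.82 ± 0.47 and -4.74 ± 0.36 to 8 d in the 3 lines. Its sharp peak was thus present in each line. A glutathione S-transferase (OS03G0785900), an enzyme that conjugates glutathione to reactive molecules, behaved otherwise before 4 d, with 207, 240 and 259 CPM at 2 d and 500, 475 and 571 at 4 d in IR64 but 719 and 648 at 2 d and 669 and 700 at 4 d in IR64(AG1,SUB1). None of the 3 lines passed the test for its rise, with log2 values of 0.66 ± 0.27, 0.43 ± 0.27 and 0.11 ± 0.33, and all 3 passed for its fall to 8 d.

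At 4 d few members were called between the lines, more of them lower than higher in each comparison. IR64(SUB1) and IR64(AG1) differed in 6 members, of which 1 was higher (0.634% of all genes were higher) and 5 lower (0.481%) in IR64(SUB1). IR64(AG1,SUB1) differed from IR64(AG1) in 4 members, 1 higher (0.409%) and 3 lower (0.504%), and from IR64(SUB1) in 7, 1 higher (0.279%) and 6 lower (0.584%). At an unadjusted p under 0.05, 6 members were higher and 34 lower in IR64(AG1,SUB1) than in IR64(AG1) (4.4% and 5.49% of all genes), 14 and 34 in IR64(AG1,SUB1) against IR64(SUB1) (5.61% and 7.14%), and 12 and 11 in IR64(SUB1) against IR64(AG1) (5.92% and 5.71%). When each library of the groups compared was left out in turn, 4 of the 6 calls between IR64(SUB1) and IR64(AG1) were made every time, and none of the 4 or of the 7, for which IR64(AG1,SUB1) has 2 libraries at 4 d. With 1 library left out, these counts ran from 1 to 8 and from 1 to 7, and the lone library was then taken to vary like the other groups.

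The largest of these differences was in OS09G0255200, a member without a description on chromosome 9, the chromosome that also carries AG1 and SUB1. It had 9.57, 8.84 and 6.36 CPM at 4 d in IR64(AG1) and 10.1, 13.7 and 7.90 in IR64, and 0 counts in every library of IR64(SUB1) and IR64(AG1,SUB1) on all 4 days. The genotypes with and without SUB1 thus did not overlap at 4 d. Against a floor of 3 counts per library (0.227 CPM), its level at 4 d was at least 36.3-fold lower in both lines than in IR64(AG1). OS09G0374900, also undescribed and on chromosome 9, had 38.4, 46.0 and 57.1 CPM in IR64(AG1), 99.5 and 129 in IR64(AG1,SUB1), 155, 196 and 232 in IR64 and 204, 244 and 271 in IR64(SUB1) at 4 d. It was higher in IR64(SUB1) than in IR64(AG1) by log2 2.33 ± 0.25 (FDR 1.0e-08), and its libraries in IR64(AG1) lay below all others.

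The beta-1,3-glucanase (OS01G0944700), an enzyme that cuts callose and fungal wall glucans, had 16.9, 10.6 and 10.1 CPM at 4 d in IR64(AG1) and 4.74, 2.80 and 2.89 in IR64(SUB1), with no overlap. Its log2 difference was -1.84 ± 0.34 (FDR 0.00056), and it was called each time a library was left out. OS07G0200900, undescribed and at rank 3, had 9.32, 8.66 and 7.59 CPM in IR64(AG1) against 1.99, 2.27 and 2.66 in IR64(SUB1), a difference of -1.90 ± 0.39. The amylase/trypsin inhibitor and the serine palmitoyltransferase OS01G0928600 were lower in IR64(SUB1) by -1.12 ± 0.25 and -1.20 ± 0.32 (FDR 0.0056 and 0.041). The first call was lost without replicate 2 of IR64(SUB1) at 4 d (-1.04, FDR 0.053) and the second without any 1 of the 6 libraries (FDR 0.064 to 0.14). Of the members that differed between IR64(AG1,SUB1) and a single-locus line, Radc1 (OS03G0186900) had 248 and 313 CPM in IR64(AG1,SUB1) and 490, 626 and 605 in IR64(SUB1), a log2 difference of -1.01 ± 0.15. The lanatoside acetylesterase-like GDSL enzyme OS06G0160200 had 92.1 and 59.1 CPM in IR64(AG1,SUB1) and 26.4, 21.2 and 16.2 in IR64(SUB1), a difference of 1.85 ± 0.43.

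At 8 d more members were called higher than lower in IR64(AG1,SUB1) against each line with 1 locus. Against IR64(SUB1), 41 members were higher (1.19% of all genes were higher) and 0 lower by edgeR (0.279% of all genes were lower). The median log2 difference was 0.53 over the 150 members and -0.008 over all genes. At an unadjusted p under 0.05, 75 members were higher and 3 lower, against 8.9% and 6.59% of all genes. Against IR64(AG1), 24 members were higher (0.905%) and 1, OS09G0255200, was lower (0.401%), with a median of 0.37 against -0.016. Between IR64(SUB1) and IR64(AG1), 1 was higher (0.351%) and 1 lower (0.244%), with a median of -0.25 against -0.019. The difference was positive for 123, 104 and 34 of the 150 members in these comparisons, which share libraries with each other.

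**Figure D5:**
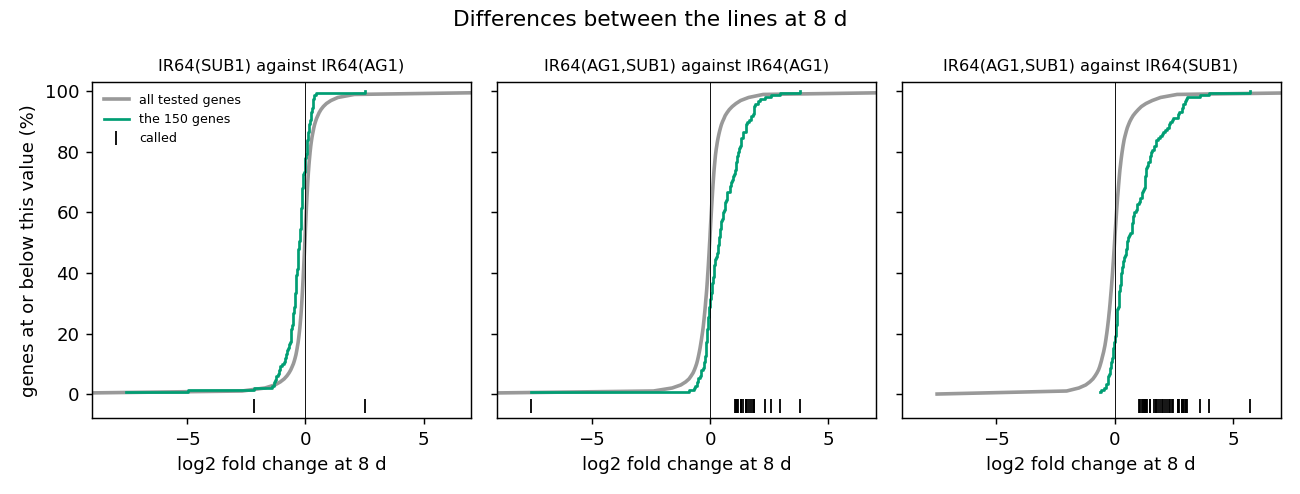
Cumulative share of genes by log2 difference between lines at 8 d for the 150 members and for all genes tested, with ticks at the members called, in 3 panels. The members' curve lies to the right of all genes where IR64(AG1,SUB1) is compared with IR64(SUB1) (41 higher) and with IR64(AG1) (24 higher), and to the left of it where IR64(SUB1) is compared with IR64(AG1).

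These 8 d counts rest on few libraries that vary. The members' share was 2.14%, 2.85% and 1.88% in the IR64(AG1,SUB1) libraries, 1.96%, 1.48% and 1.10% in IR64(AG1), 1.48% and 1.19% in IR64(SUB1) and 2.56%, 2.22% and 1.95% in IR64, so IR64(AG1,SUB1) and IR64(AG1) overlapped. In the same libraries the green leaf sum was 3523, 2958 and 3577 CPM in IR64(AG1,SUB1), 3058, 5613 and 5616 in IR64(AG1), 4836 and 3696 in IR64(SUB1) and 1574, 3055 and 1565 in IR64, and its part in the differences was not tested. Without replicate 3 of IR64(SUB1) at 8 d, 3 of the 41 calls against IR64(SUB1) were left, and without replicate 2 of IR64(AG1,SUB1) 24 members were called. Without that replicate, 8 were called against IR64(AG1), 11 without replicate 3 of IR64(AG1) and 37 when its replicate 1 was left out. Called with every library left out in turn were 3 of the 41 and 7 of the 25, and neither of the calls between IR64(SUB1) and IR64(AG1).

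The member that held in both of these comparisons with every library left out and has a description was the peroxidase OS05G0135200. At 8 d it had 8.25, 11.0 and 7.49 CPM in IR64(AG1,SUB1), 3.08, 3.68 and 2.68 in IR64(AG1), 2.31 and 3.29 in IR64(SUB1) and 7.96, 8.73 and 5.82 in IR64. IR64(AG1,SUB1) thus overlapped with IR64 and lay above both single-locus lines with no overlap, by log2 1.55 ± 0.21 from IR64(AG1) and 1.74 ± 0.25 from IR64(SUB1) (FDR 4.4e-06 and 2.2e-05). The GDSL enzyme OS06G0160200 had 16.9, 23.1 and 10.8 CPM in IR64(AG1,SUB1) against 5.05, 2.45 and 3.19 in IR64(AG1) and 2.22 and 0.771 in IR64(SUB1), also without overlap. It was higher by 2.30 ± 0.44 and 3.61 ± 0.58, and the call against IR64(AG1) was made with each library left out. OS09G0374900 had 4.62, 7.02 and 6.44 CPM in IR64(AG1,SUB1), 0.529, 0.330 and 0.462 in IR64(AG1) and 3.71 and 1.58 in IR64(SUB1), and was higher than in IR64(AG1) by 3.81 ± 0.44.

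The chitinase-family (GH18) proteins OS05G0247800 and OS05G0248200, neighbours on chromosome 5, had 348, 647 and 311 and 414, 853 and 392 CPM at 8 d in IR64(AG1,SUB1), 146, 52.9 and 22.5 and 145, 59.1 and 15.3 in IR64(AG1), and 100 and 13.1 and 65.3 and 7.30 in IR64(SUB1). IR64(AG1,SUB1) lay above both single-locus lines, which overlapped with each other and spread several-fold within themselves. The differences were 2.59 ± 0.69 and 2.95 ± 0.73 from IR64(AG1) and 3.01 ± 0.83 and 4.00 ± 0.91 from IR64(SUB1). In IR64(AG1,SUB1) neither passed the test for a fall from 4 to 8 d (-1.59 ± 0.71, FDR 0.060, and -0.87 ± 0.74, FDR 0.34). Both serine palmitoyltransferases, both aspartic peptidases and an aldo/keto reductase (OS04G0339400) were likewise higher in IR64(AG1,SUB1) than in both other lines, by 1.32 to 1.74 from IR64(AG1) and by 1.91 to 3.06 from IR64(SUB1). The calls for the GH18 pair and these 5 genes rested on single libraries. Without replicate 3 of IR64(AG1) none was called against that line (log2 1.06 to 2.46, lowest FDR 0.11), and without replicate 3 of IR64(SUB1) none was called against that one (1.53 to 3.14, lowest FDR 0.12). OS07G0200900 had 0.550, 0.277 and 0.250 CPM in IR64(AG1,SUB1) and 0 in both IR64(SUB1) libraries, which is at least 2.48-fold higher against the floor of 3 counts per library.

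A difference at 8 d can come from the level at 4 d, so the change from 4 to 8 d was compared between lines. It differed from IR64(SUB1) in 13 members (0.409% of all genes) and from IR64(AG1) in 5 (0.111%), and in each of these members the log2 change was less negative in IR64(AG1,SUB1). The undescribed OS09G0364800, among both the 13 and the 5 and named after its values were seen, had 15.3 and 13.1 CPM at 4 d and 11.98, 20.2 and 14.5 at 8 d in IR64(AG1,SUB1), where the days overlapped. Its mean there was higher at 8 d in CPM, while the fitted log2 change with TMM was -0.24 ± 0.24 (FDR 0.42). Between IR64(SUB1) and IR64(AG1) the change differed in 0 members (0.118% of all genes) by edgeR and 0 by DESeq2. At an unadjusted p under 0.05 it differed in 11 members, all with a larger fall in IR64(SUB1). No share of all genes at that threshold is at hand, so nothing is read from the 11. The peroxidase OS05G0135200 had a difference in the change of 1.56 ± 0.30 from IR64(AG1) and 1.74 ± 0.32 from IR64(SUB1). For a conserved hypothetical protein (OS06G0493100) it was 2.06 ± 0.41 from IR64(SUB1), and this gene stood at 184 and 167 CPM at 4 d and 165, 177 and 134 at 8 d in IR64(AG1,SUB1), where the days overlapped, while in IR64(SUB1) it went from 255, 363 and 291 to 83.4 and 52.7. With each library left out in turn 3 of the 13 and none of the 5 were called every time.

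Against IR64, given as a description, the members' median log2 difference at 4 d was 0.02, -0.04 and -0.15 in the 3 lines. At 2 d it was 0.24, -0.21 and -0.10, and at 8 d -0.48, -0.69 and 0.03. At 14 d it was -0.07, -0.19 and 0.24, with an upper quartile of 1.21 in IR64(AG1,SUB1), where 111 of 150 members stood above IR64. The median over all genes was -0.003 in IR64(AG1,SUB1) at 14 d. The rule favoured genes with low IR64 levels on days other than 4 d, which can raise the members' differences from IR64 on those days. It also favoured genes with high IR64 levels at 4 d, which can lower the differences on that day.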

How the data were processed

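RNA-seq counts of the 45 libraries were used as deposited. Per the labels the RNA was poly(A) selected, and per the methods of the study the authors made strand-specific libraries, trimmed the reads, aligned them with TopHat 2.0.14 and Bowtie2 2.2.5 to IRGSP-1.0, extended by the SUB1A-1 sequence, and made raw counts per gene from the exons in union mode. Reads shared by near-identical copies can be lost or split by such counting. Coordinates were not used here.

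CPM used column totals. Folds came from edgeR 4.0.16 in R 4.3.3 (filterByExpr on the 16 groups, which kept 26180 genes, all 150 members among them, TMM, glmQLFit with a coefficient per group, glmQLFTest), and all FDR values are Benjamini-Hochberg values over those genes. The study used edgeR's likelihood ratio test after adding 5 counts, which was run as an alternative, as were DESeq2 1.42.0, no filter, a replicate block, only the groups compared, other scalings of the member rule and leaving out each library. A floor of 3 counts was used for bounds, which cover counting error only. The fit was tested on simulated counts.

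The members, the lists and the tests were chosen with earlier results of these data known. Named members were the 8 highest by ratio, the 3 most abundant, the 2 highest of each word list, the largest difference in each direction between pairs of lines, and ranks 149 to 152, as far as a description was at hand. A further 19 were named after their values were seen. Word lists were matched to the descriptions of 3800 genes. The fold changes and the up or down marks in the study's own tables were not used.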

Additional observations from a re-analysis of the deposited data

Results flagged for a closer look

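The change from 4 to 8 d was compared between lines by an interaction term in edgeR's quasi-likelihood fit. Of the members for which it differed, those named above are listed here as values. It differed in 0 members between IR64(SUB1) and IR64(AG1), in 5 between IR64(AG1,SUB1) and IR64(AG1) and in 13 between IR64(AG1,SUB1) and IR64(SUB1), with a less negative log2 change in IR64(AG1,SUB1) in each. Over all genes tested the shares were 0.118%, 0.111% and 0.409%. With 1 library left out the last pair of counts ran from 0 to 12 and from 3 to 20, and none of the 5 and 3 of the 13 were called every time.

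Relative to IR64(AG1), the log2 change in IR64(AG1,SUB1) was higher by 2.44 for OS10G0116800, the member with the highest ranking ratio, by 2.53 for OS09G0374900, by 1.55 for OS09G0364800 and by 1.56 for the peroxidase OS05G0135200. At 8 d OS10G0116800 had 4.07, 16.4 and 6.89 CPM in IR64(AG1,SUB1) and 2.50, 3.87 and 1.8 CPM in IR64(AG1), so its higher mean rests largely on replicate 2.

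Relative to IR64(SUB1), the change was higher by 2.33 for OS09G0374900, 2.04 for OS09G0364800, 1.74 for the peroxidase OS05G0135200, 1.52 and 1.48 for the neighbouring peroxidases OS03G0368300 and OS03G0368000, and 2.06 for the hypothetical protein OS06G0493100. The neighbouring peroxidases had 31.4, 56.4 and 36.3 and 41.2, 66.2 and 50.9 CPM at 8 d in IR64(AG1,SUB1) and 17.1 and 17.0 and 22.7 and 21.7 CPM in IR64(SUB1), with no overlap. Of the described members named here, the peroxidase OS05G0135200 was the 1 called against IR64(SUB1) with each library left out in turn.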

How the results depend on the processing

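The counts of members that rose or fell in a line stayed within 1.5 times under every alternative run. With each library left out in turn, they ran from 79 to 89, 144 to 147 and 146 to 150 in IR64(AG1) (rise from 2 to 4 d, fall to 8 d, fall to 14 d), from 110 to 119, 143 to 147 and 146 to 148 in IR64(SUB1), and for IR64(AG1,SUB1) from 87 to 101, 130 to 137 and 138 to 144. Of the members, from 135 to all but 1 stayed on the list with an IR64 library left out, 127 with TMM library sizes in the rule and 139 with an offset of 5 CPM. Counts between lines depended more on the libraries and the fit. Left-out libraries gave 4 to 8 calls between IR64(SUB1) and IR64(AG1) at 4 d, 2 to 3 at 8 d and 0 to 0 for the change, 1 to 8, 8 to 37 and 0 to 12 between IR64(AG1,SUB1) and IR64(AG1), and 1 to 7, 3 to 46 and 3 to 20 between IR64(AG1,SUB1) and IR64(SUB1). Fitted on only the groups compared, the calls were 0 of 2 for IR64(SUB1) against IR64(AG1) at 8 d, 8 and 12 for IR64(AG1,SUB1) against IR64(AG1) at 4 and 8 d with 2 for the change, and 11 for IR64(AG1,SUB1) against IR64(SUB1) at 4 d with 26 for the change. The offset of 5 CPM gave 1 for IR64(SUB1) against IR64(AG1) at 8 d, adding 5 counts with the likelihood ratio test gave 4 for IR64(AG1,SUB1) against IR64(SUB1) at 4 d, and DESeq2 gave 7 for IR64(AG1,SUB1) against IR64(AG1) at 4 d. Fewer samples enter the fit on only the groups compared, and the cause of the other shifts was not tested. Same-numbered replicates did not deviate together in all pairs (correlations from -0.037 to 0.274), and a fit with a replicate block gave 84, 146 and all but 1 of the members in IR64(AG1), 115, 145 and 146 in IR64(SUB1), for IR64(AG1,SUB1) 92, 136 and 141, and 7, 2, 0, 7, 25, 5, 8, 39 and 14 calls between lines in the order above. Column totals without TMM, an alternative chosen after seeing the data, gave 141, 138 and 130 falls to 14 d and 7, 2, 0, 6, 25, 5, 7, 39 and 13 calls between lines. Shares of all genes called under the alternatives are not given here, so their counts are not read against a background. Of single members' log2 values under other settings, 2059 kept direction and side of the threshold, 56 lost it, 9 gained it and 0 reversed, and with libraries left out 3438, 166, 9 and 0.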

Other observations

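At 14 d, which entered no comparison between lines, the members held 0.646%, 0.992% and 0.945% of the counts in IR64(AG1,SUB1), above every library of IR64 (0.552%, 0.455% and 0.497%), IR64(AG1) (0.516%, 0.466% and 0.477%) and IR64(SUB1) (0.447%, 0.427% and 0.399%). The green leaf sum was 7315 to 11820 CPM in IR64(AG1,SUB1) at 14 d and overlapped with the other genotypes. The difference was not tested.

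Replicate 2 of IR64 at 14 d stood apart for several members that were otherwise still present. The GH18 proteins OS05G0247800 and OS05G0248200 had 1.95 and 1.26 CPM in it and 95.1 and 106 and 76.3 and 79.7 CPM in replicates 1 and 3. The aspartic peptidase OS05G0403000 had 1.17 CPM in it against 17.4 and 26.6, the GDSL enzyme OS06G0160200 0.0867 against 2.11 and 2.48, and OS09G0255200 0.260 against 4.56 and 4.52. The auxin efflux carrier OS01G0802700 went the other way, with 6.89 CPM against 5.004 and 3.34. In IR64(AG1), replicate 2 at 14 d was also the lowest for both GH18 proteins (40.9 against 82.7 and 93.6, and 20.5 against 55.3 and 66.3 CPM).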
